A study of Homo sapiens with 12 samples.

Results

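The 9 genes described here encode the sealing layer of the epithelial cell border: 5 claudins (CLDN1, CLDN3, CLDN4, CLDN7 and CLDN12), occludin (OCLN), the scaffold protein ZO-1 (TJP1), the junctional adhesion molecule A (F11R) and the adhesion molecule EPCAM. They were taken by name from the 63677 genes of the count tables, with earlier results of these data known, and all 9 passed the filter on low counts that left 21325 genes for testing. RNA was sequenced from the established human breast cancer lines HCC38, MDA-MB-468 and SUM149PT, each a model of 1 tumor. In each line 2 libraries came from cells transfected with LNA1/2, a mixture of a pair of LNAs per the study, against the lncRNA of the study, taken to be the gene now named LINC01956 (ENSG00000258910), and 2 from cells transfected with the control LNA NS. Locked nucleic acid gapmers (LNAs) are antisense oligonucleotides that direct cleavage of the RNA they pair with. Both treatments were given at 50 nM for 24 h, with a change of medium after 6 h, so that all 12 libraries come from transfected cells. The files do not pair the study's own clone-based name of the lncRNA with this symbol, and the match rests on the naming history of the gene. Each line was grown in its own medium, so that line and medium cannot be told apart. The question for these genes is how much of the junction each line expresses and how it responds to the LNAs against the lncRNA. All knock-down libraries had the same LNA1/2, so loss of the lncRNA and other effects of these LNAs cannot be told apart.

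Tight junctions close the space between neighboring epithelial cells near their apical side. Claudins span the membrane and pair across the gap to form the paracellular barrier, occludin belongs to the MARVEL family of membrane proteins of the same strands, and ZO-1 ties both to actin. Junctional adhesion molecule A is an immunoglobulin-like protein that recruits polarity proteins to the forming junction. EPCAM is not a tight junction protein, but binds claudin 7 and stabilizes it at the membrane. Low levels of CLDN3, CLDN4, CLDN7, E-cadherin and EPCAM define the claudin-low class of breast tumors and lines.

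CLDN3 and CLDN4 are neighbors on chromosome 7, with start sites 60726 bp apart on opposite strands, yet they differed most in the control cells of SUM149PT. The 250 bases upstream of their RefSeq start sites are therefore shown, placed on GRCh37 by exact match, 5′ to 3′ on the strand of the gene, with each CpG dinucleotide in capitals.
CLDN3 (chr7:73184601-73184850, minus strand): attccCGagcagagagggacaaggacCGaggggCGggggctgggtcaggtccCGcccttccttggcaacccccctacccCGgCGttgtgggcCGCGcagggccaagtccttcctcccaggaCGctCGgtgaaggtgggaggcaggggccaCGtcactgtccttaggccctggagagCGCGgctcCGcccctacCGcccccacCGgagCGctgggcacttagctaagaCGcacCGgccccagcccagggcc
CLDN4 (chr7:73245076-73245325, plus strand): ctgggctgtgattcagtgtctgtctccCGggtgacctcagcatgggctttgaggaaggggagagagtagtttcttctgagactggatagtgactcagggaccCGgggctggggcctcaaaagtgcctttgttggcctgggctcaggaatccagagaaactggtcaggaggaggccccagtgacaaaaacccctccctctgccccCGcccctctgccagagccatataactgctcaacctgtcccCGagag
The CLDN3 window held 19 CpG and the CLDN4 window 4, beside a median of 11 over 27305 RefSeq promoter windows of this length, of which the middle 50% ran from 3 to 23. Of the other genes with a RefSeq window, CLDN1 had 28 CpG, CLDN7 9, CLDN12 12, OCLN 24 and TJP1 26. RefSeq windows were used for 7 of the 9 genes, not for F11R and EPCAM. The letters CACCTG, the E-box that SNAIL and ZEB repressors bind, were found on either strand only in the windows of OCLN, 33 bases before the start site, and TJP1, 88 bases before it, against 17.5% of all windows. A match is a description of these letters and not a bound site.

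By GENCODE annotation lifted to GRCh37, CLDN1 (ENSG00000163347) lies at chr3:190023496-190040235, CLDN3 (ENSG00000165215) at chr7:73183327-73184600 in 1 exon, CLDN4 (ENSG00000189143) at chr7:73213872-73247020 and CLDN7 (ENSG00000181885) at chr17:7163222-7167302. CLDN12 (ENSG00000157224) lies at chr7:90013035-90142716, OCLN (ENSG00000197822) at chr5:68788119-68853931, TJP1 (ENSG00000104067) at chr15:29991571-30261118, F11R (ENSG00000158769) at chr1:160965001-160991133 and EPCAM (ENSG00000119888) at chr2:47572297-47614740. TJP1 is by far the longest, with a span of 269548 bp. F11R shares 1853 of its 5061 exonic bases with a read-through gene of the same strand that held 150 counts over all libraries, and CLDN12 shares 201 exonic bases with CDK14 and 347 with GTPBP10. CLDN12 also shares 531 with PTTG1IP2 and 371 with a lncRNA, both without counts. CLDN7 shares 269 of its 2492 exonic bases with a same-strand gene without counts, and 38 with ELP5 on the opposite strand. Reads in such shared stretches can be left uncounted as ambiguous, and those of OCLN can be split with its near-identical pseudogene OCLNP1, which held 11 counts, so that these values carry that uncertainty.

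The libraries held 32187835 to 56191152 counts in genes. LINC01956 was lower in every knock-down library than in the controls of its line, at 0.0230 and 0.0235 CPM (gene counts per 1e6 counts of the library, scaled by TMM factors) against 0.796 and 0.611 CPM in MDA-MB-468, 0.576 and 0.416 against 10.7 and 11.2 CPM in SUM149PT, and 1.48 and 2.05 against 14.6 and 15.1 CPM in HCC38. Of 7 immune markers the defining PTPRC and CD3E stayed at or under 0.0803 CPM in every library, and the list sum ran from 7.52 to 14.8 CPM, mostly CD14. The summed endothelial markers were 12.2 to 12.9 CPM after knock-down against 6.47 to 7.68 CPM in control MDA-MB-468 cells, 2.53 to 2.73 against 0.830 to 0.945 CPM in SUM149PT and 2.23 to 2.36 against 1.38 to 1.88 CPM in HCC38, with VWF at most at 0.327 CPM. CDH5 was at 6.68 CPM after knock-down against 2.01 CPM in control MDA-MB-468 cells, and at 2.16 against 0.332 CPM in SUM149PT. In HCC38 it was at 0.0318 against 0.0423 CPM. KDR was at most at 5.46 CPM in any library. The part of the immune and endothelial markers in the results was not tested. The summed fibroblast markers ran from 124 to 131 CPM after knock-down and 103 to 124 CPM in control HCC38 cells, mainly COL1A1, with PDGFRA at or under 0.284 CPM in every library. In SUM149PT the sum was 64.3 to 70.1 CPM after knock-down and 73.2 to 74.5 CPM in controls. MDA-MB-468 had 19.6 to 21.3 and 17.1 to 19.5 CPM. DCN was at 16.0 CPM after knock-down and 9.06 CPM in control SUM149PT cells, and COL1A2 at 11.3 and 15.3 CPM in HCC38.

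None of the 3 lines lacked the claudins as a class. In control cells the highest level per length was that of EPCAM in HCC38 (186 ± 23.7 CPM per kb of merged exons) and MDA-MB-468 (160.0 ± 3.34), and that of CLDN7 in SUM149PT (159 ± 9.01; SD, n = 2 each). OCLN was lowest in HCC38 (1.05 ± 0.00758 CPM per kb) and MDA-MB-468 (1.60 ± 0.0445), and CLDN3 in SUM149PT (0.445 ± 0.232). In HCC38 the order from the top was EPCAM, CLDN4 (62.5 ± 2.40), CLDN7 (47.2 ± 2.43), CLDN3 (35.2 ± 1.26), F11R (32.8 ± 4.74), TJP1 (9.99 ± 1.44), CLDN1 (6.09 ± 0.116), CLDN12 (3.40 ± 0.339) and OCLN. Of these neighbors, CLDN3 and F11R lay within their spread. In SUM149PT CLDN7 was followed by EPCAM (113 ± 10.7), CLDN4 (29.1 ± 0.295), TJP1 (24.8 ± 4.64), F11R (13.1 ± 0.504), CLDN1 (7.21 ± 0.00549), CLDN12 (3.78 ± 0.286), OCLN (1.52 ± 0.163) and CLDN3, with CLDN4 and TJP1 within their spread. In MDA-MB-468 the order after EPCAM was CLDN7 (100.1 ± 3.95), CLDN4 (40.2 ± 2.14), CLDN3 (35.4 ± 1.24), F11R (22.4 ± 1.51), CLDN1 (10.8 ± 0.627), TJP1 (7.80 ± 0.603), CLDN12 (2.32 ± 0.305) and OCLN. With the length of the canonical transcript in place of merged exons, CLDN1 and TJP1 changed places in MDA-MB-468, and CLDN1 with CLDN12 and CLDN3 with F11R in HCC38.

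**Figure D1:**
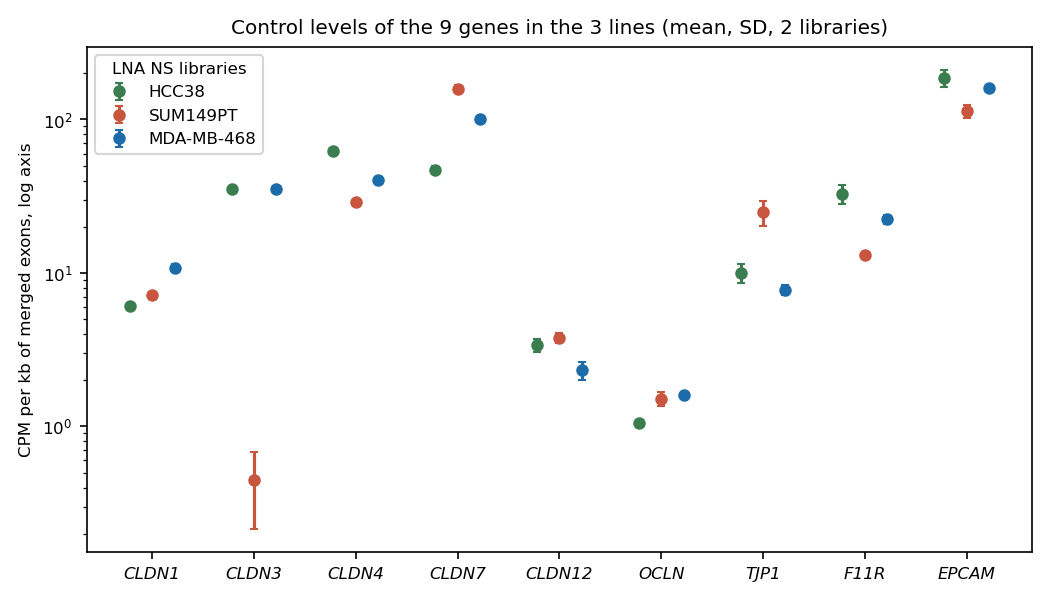
Level of each gene in the LNA NS control libraries as CPM per kb of merged exons on a log axis; points are means and bars SD of 2 libraries, colored by line. CLDN3 in SUM149PT, at 0.445 CPM per kb, is the lowest point, under OCLN in HCC38 at 1.05, while EPCAM, CLDN7 and CLDN4 are high in every line.

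The claudin that set SUM149PT apart was CLDN3, a barrier-forming claudin. Its control libraries held 43.7 and 45.9 CPM in HCC38, 0.777 and 0.358 CPM in SUM149PT, and 44.0 and 46.2 CPM in MDA-MB-468. The SUM149PT values come from 40 counts in both libraries together, and the other lines overlap each other and lie far above. CLDN3 was 76.2-fold higher in HCC38 than in SUM149PT (log2 difference 6.25 ± 0.22, SE; edgeR adjusted p = 1.5e-12) and did not pass the test between HCC38 and MDA-MB-468 (-0.01 ± 0.14, adjusted p = 0.96). The log2 difference between HCC38 and SUM149PT was 6.95 without SUM149PT control replicate 1 and 5.84 without control replicate 2. In bulk RNA, fewer cells with a transcript and less of it per cell cannot be told apart.

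Of the 9 genes, 5 were higher and 3 lower in HCC38 than in MDA-MB-468 control cells, where 37.7% of all genes tested were higher and 33.7% lower at an adjusted p under 0.1. Against SUM149PT, HCC38 had 4 higher and 4 lower, beside 38.0% and 31.6% of all genes. SUM149PT had 3 higher and 5 lower than MDA-MB-468, beside 33.2% and 35.3% of all genes. These shares are large because the lines differ at most genes, and a count of 8 of 9 is to be read against 71.4%, 69.6% and 68.5% called in either direction.

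CLDN7, a claudin of the lateral membrane as well as the junction, was 3.37-fold lower in HCC38 than in SUM149PT and 2.12-fold lower than in MDA-MB-468. Its controls were at 122 and 113 CPM in HCC38, 380.0 and 412 CPM in SUM149PT, and 256 and 243 CPM in MDA-MB-468, with no overlap between lines. CLDN4, a claudin that limits paracellular sodium, had the reverse order, with 302 and 286 CPM in HCC38, 136 and 138 CPM in SUM149PT, and 196 and 182 CPM in MDA-MB-468. HCC38 was thus the highest line for CLDN4, by 2.15-fold over SUM149PT (adjusted p = 1.3e-08) and 1.55-fold over MDA-MB-468 (adjusted p = 5.4e-06), and the lowest for CLDN7. TJP1 stood out in SUM149PT at 318 and 243 CPM, against 83.5 and 93.1 CPM in MDA-MB-468 (3.18-fold higher, adjusted p = 1.2e-07), while HCC38 had 101 and 125 CPM. F11R was lowest in SUM149PT, with 183 and 149 CPM in HCC38, 64.3 and 68.0 CPM in SUM149PT and 119 and 108 CPM in MDA-MB-468, and HCC38 was 2.51-fold above SUM149PT (adjusted p = 2.7e-08). EPCAM was 1.65-fold higher in HCC38 than in SUM149PT (adjusted p = 1.5e-05).

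CLDN1, the claudin of the epidermal barrier, was lower in HCC38 than in MDA-MB-468 (log2 difference -0.83 ± 0.10, adjusted p = 1.5e-06), and CLDN12 and F11R were higher there (0.55 ± 0.13 and 0.55 ± 0.11). CLDN12 was also 1.63-fold higher in SUM149PT than in MDA-MB-468 (adjusted p = 2e-04), and did not pass the test between HCC38 and SUM149PT (-0.16 ± 0.13, adjusted p = 0.3). OCLN was lower in HCC38 than in MDA-MB-468 (-0.61 ± 0.13) and SUM149PT (-0.54 ± 0.13), and did not pass the test between SUM149PT and MDA-MB-468 (-0.08 ± 0.13, adjusted p = 0.64). The calls for TJP1 (0.36 ± 0.15) and EPCAM (0.22 ± 0.10) between HCC38 and MDA-MB-468 and for CLDN1 between HCC38 and SUM149PT (-0.25 ± 0.10) were lost when single libraries were left out. TJP1 was at 0.25 without MDA-MB-468 control replicate 1 and 0.18 without HCC38 control replicate 2. EPCAM was at 0.17 and 0.22 without MDA-MB-468 control replicate 1 or 2, 0.20 without SUM149PT control replicate 1, 0.06 without HCC38 control replicate 1 and 0.20 without HCC38 knock-down replicate 1. CLDN1 was at -0.25 without SUM149PT control replicate 1 or 2 and -0.24 without HCC38 control replicate 1.

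Other genes used to describe the claudin-low class differed between the lines. Of 9, 8 were tested, and HCC38 had 4 higher (VIM, CDH2, FN1 and SPARC) and 4 lower (MUC1, KRT18, KRT19 and CD44) than MDA-MB-468. Claudin-low lines are described as high in CD44 and in the 4 mesenchymal genes, and low in the other 3. Against SUM149PT, HCC38 had 2 higher (VIM and SPARC) and 4 lower (MUC1, KRT18, KRT19 and FN1), and SUM149PT had 3 higher and 4 lower than MDA-MB-468. Of all genes, 37.7% were higher and 33.7% lower in HCC38 than in MDA-MB-468. HCC38 against SUM149PT had 38.0% and 31.6%, and SUM149PT against MDA-MB-468 33.2% and 35.3%. SPARC, a matrix protein, was at 279.7 ± 1.88 CPM in HCC38, 0.329 ± 0.0871 CPM in SUM149PT and 0.190 ± 0.0806 CPM in MDA-MB-468. CDH1, which encodes E-cadherin, was expressed in all control cells, at 302 ± 42.5 CPM in HCC38, 452 ± 60.4 CPM in SUM149PT and 110.5 ± 10.7 CPM in MDA-MB-468. Vimentin (VIM), an intermediate filament of mesenchymal cells, was at 516 ± 73.0 CPM in HCC38, 167 ± 11.2 CPM in SUM149PT and 14.1 ± 1.35 CPM in MDA-MB-468. The repressor ZEB1 was low in all, at 3.29 ± 0.357, 0.956 ± 0.200 and 0.282 ± 0.127 CPM in the same order of lines. SNAI2 was at 3.44 ± 0.0508 CPM in HCC38, 51.8 ± 1.27 CPM in SUM149PT and 0.0137 ± 0.0194 CPM in MDA-MB-468. SUM149PT, the line with the least CLDN3, had the most SNAI2, and also the most CLDN7 (396 ± 22.4 CPM), TJP1 (281 ± 52.6 CPM) and CDH1. The part of SNAI2 in these levels was not tested. TWIST1 followed the same order of lines as SNAI2 (0.563 ± 0.131, 23.0 ± 1.27 and 0.0270 ± 0.000606 CPM), as did ZEB2 (0.568 ± 0.123 and 4.84 ± 0.121 CPM, and no count in MDA-MB-468). SNAI1 was at 19.5 ± 1.49 CPM in HCC38, 36.8 ± 1.06 CPM in SUM149PT and 1.81 ± 0.303 CPM in MDA-MB-468, and TWIST2 at 6.43 ± 1.12, 5.96 ± 0.180 and 7.99 ± 0.126 CPM (all SD, n = 2). The basal keratin KRT5 was at 61.1 ± 2.53 CPM in HCC38, 1876 ± 10.5 CPM in SUM149PT and 2470 ± 199 CPM in MDA-MB-468.

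After knock-down of the lncRNA the claudins did not move as a block. In MDA-MB-468 5 of the 9 genes rose and 2 fell, beside 24.9% of all genes tested that rose and 25.7% that fell (50.6% in either direction). In SUM149PT 3 rose and 2 fell, beside 20.0% and 18.0% (38.0%). In HCC38 3 rose and none fell by edgeR, at an unadjusted p under 0.05 too, or by DESeq2, beside 15.5% and 18.4% (34.0%). For the mean response of the 3 lines 6 rose and 2 fell, beside 28.4% and 26.5% (54.8%). The median log2 fold change of the 9 genes was 0.49 in MDA-MB-468, 0.20 in SUM149PT, 0.01 in HCC38 and 0.28 for the mean, beside 0.00, 0.03, 0.01 and 0.04 over all genes. CLDN4 was called higher in each line. CLDN1 rose by over 2-fold in MDA-MB-468, as 9.21% of all genes did, and CLDN4 in SUM149PT, as 6.31% did.

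**Figure D2:**
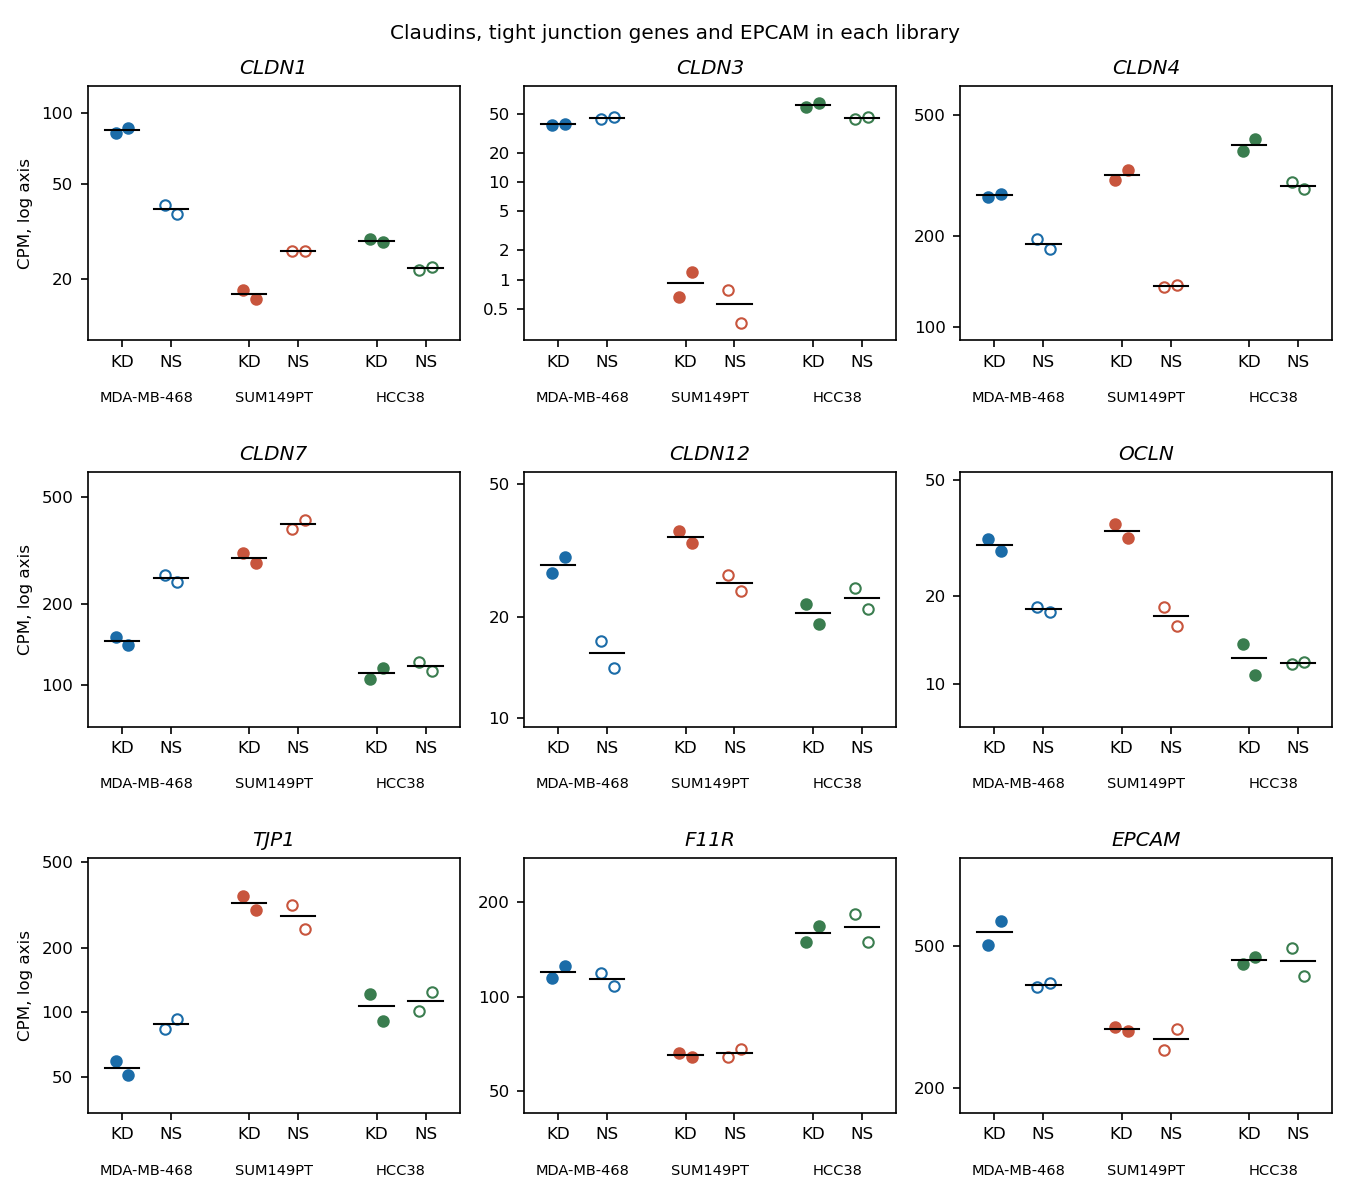
Level of each gene in every library, as CPM on a log axis, with knock-down (KD, filled) left of LNA NS (open) for each line; points are libraries and bars the means of 2. In each line both knock-down libraries lie above both controls for CLDN4, whereas CLDN1 lies above its controls in MDA-MB-468 and HCC38 and under them in SUM149PT.

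CLDN4 rose in every line, by unequal amounts. In MDA-MB-468 it had 270.0 and 275 CPM after knock-down, against 196 and 182 CPM in controls. In SUM149PT it had 307 and 329.8 CPM after knock-down, against 136 and 138 CPM in controls. In HCC38 it had 382 and 417 CPM after knock-down, against 302 and 286 CPM in controls. The groups were apart in every line, and SUM149PT, the lowest line in controls, lay above MDA-MB-468 after knock-down. The rise was 2.33-fold in SUM149PT (log2 fold change 1.22 ± 0.08, SE; edgeR adjusted p = 7.4e-08), 1.44-fold in MDA-MB-468 (0.53 ± 0.08, adjusted p = 8.1e-05) and 1.36-fold in HCC38 (0.44 ± 0.08, adjusted p = 0.00088).

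CLDN1 moved in opposite directions between lines. It had 82.6 and 86.9 CPM after knock-down in MDA-MB-468, against 40.8 and 37.6 CPM in controls, a 2.16-fold rise (adjusted p = 1.7e-07). In SUM149PT it had 17.9 and 16.4 CPM after knock-down, against 26.2 CPM in each control, and fell 1.52-fold (adjusted p = 0.00024). In HCC38 it had 29.3 and 28.5 CPM after knock-down, against 21.8 and 22.4 CPM in controls, and rose 1.31-fold (adjusted p = 0.007). No pair of groups overlapped, and the test of the difference between the 3 responses gave an adjusted p of 7.2e-06. The call for the mean of the lines (0.30 ± 0.06, adjusted p = 0.00032) therefore averages a fall with rises.

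CLDN7, which pairs with EPCAM, fell in MDA-MB-468 and SUM149PT. It had 151 and 141 CPM after knock-down in MDA-MB-468, against 256 and 243 CPM in controls (1.71-fold lower, adjusted p = 4.1e-06). In SUM149PT it had 309 and 283 CPM after knock-down, against 380.0 and 412 CPM in controls (1.34-fold lower, adjusted p = 0.0021). In HCC38 the groups overlapped, with 105 and 116 CPM after knock-down and 122 and 113 CPM in controls (-0.09 ± 0.09, adjusted p = 0.53). Where CLDN7 fell in MDA-MB-468, EPCAM rose, with 504 and 586 CPM after knock-down against 383 and 394 CPM in controls (1.40-fold, adjusted p = 0.0011). EPCAM did not pass the test in SUM149PT, with 297 and 288 CPM after knock-down and 256 and 292 CPM in controls, or in HCC38, with 444 and 465 CPM after knock-down and 494 and 412 CPM in controls, and the groups overlapped in both.

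CLDN12, a claudin without the usual PDZ-binding tail, rose in MDA-MB-468 to 27.1 and 30.2 CPM, against 17.0 and 14.1 CPM in controls (1.84-fold, adjusted p = 4.4e-05). In SUM149PT it rose to 36.2 and 33.3 CPM, against 26.7 and 24.0 CPM in controls (1.37-fold, adjusted p = 0.013). The SUM149PT call was lost without knock-down replicate 1 (log2 fold change 0.38) or control replicate 2 (0.37), although the groups did not overlap. In HCC38 it had 21.9 and 19.1 CPM after knock-down and 24.4 and 21.2 CPM in controls, which overlapped (-0.15 ± 0.13, adjusted p = 0.44). OCLN went the same way, with 31.4 and 28.5 CPM after knock-down against 18.4 and 17.7 CPM in control MDA-MB-468 cells (1.66-fold, adjusted p = 0.00028), and 35.3 and 31.5 CPM against 18.4 and 15.8 CPM in SUM149PT (1.95-fold, adjusted p = 5.2e-05). HCC38 had 13.7 and 10.7 CPM of OCLN after knock-down, on either side of its controls at 11.7 and 11.9 CPM (0.06 ± 0.13, adjusted p = 0.79).

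CLDN3 rose in HCC38, with 58.8 and 64.0 CPM after knock-down against 43.7 and 45.9 CPM in controls (1.37-fold, adjusted p = 0.026). That call was lost without HCC38 control replicate 1 (0.41 on the log2 scale) or knock-down replicate 2 (0.39). In MDA-MB-468 it had 38.5 and 39.5 CPM after knock-down and 44.0 and 46.2 CPM in controls, which did not overlap but did not pass the test (-0.21 ± 0.14, adjusted p = 0.26). In SUM149PT the values were 0.669 and 1.19 CPM after knock-down and 0.777 and 0.358 CPM in controls, from 76 and 40 counts in all, and no difference was detectable at this depth (0.59 ± 0.32, adjusted p = 0.19). There, the call was gained without control replicate 1 (1.30) or knock-down replicate 1 (1.01), so that single libraries decide it. The mean response of CLDN3 (0.28 ± 0.13, adjusted p = 0.081) lost its call in 8 of the 12 fits that left out 1 library, and ran from 0.14 to 0.51 over all 12.

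TJP1, the ZO-1 scaffold, fell in MDA-MB-468, with 59.3 and 51.2 CPM after knock-down against 83.5 and 93.1 CPM in controls (1.60-fold lower, adjusted p = 0.002). It overlapped in SUM149PT, with 348 and 298 CPM after knock-down and 318 and 243 CPM in controls (0.20 ± 0.15, adjusted p = 0.34), and in HCC38, with 122 and 91.4 CPM after knock-down and 101 and 125 CPM in controls (-0.08 ± 0.15, adjusted p = 0.75). The mean response of TJP1 (-0.18 ± 0.09, adjusted p = 0.097) lost its call in 6 of 12 fits without 1 library (-0.27 to -0.12 over all 12) and under upper quartile scaling (-0.08). TJP1 spans over 200 kb, and the 1296 genes of that span had a median log2 fold change of -0.85 in MDA-MB-468, where 57.4% fell, -0.32 in SUM149PT and -0.54 in HCC38. The part of span in the fall of TJP1 was not tested. F11R stayed close to its controls in every line, with 115 and 125 CPM after knock-down and 119 and 108 CPM in control MDA-MB-468 cells (0.08 ± 0.11), 66.2 and 64.3 against 64.3 and 68.0 CPM in SUM149PT (-0.02 ± 0.11), and 149 and 168 against 183 and 149 CPM in HCC38 (-0.07 ± 0.11). All its groups overlapped.

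**Figure D3:**
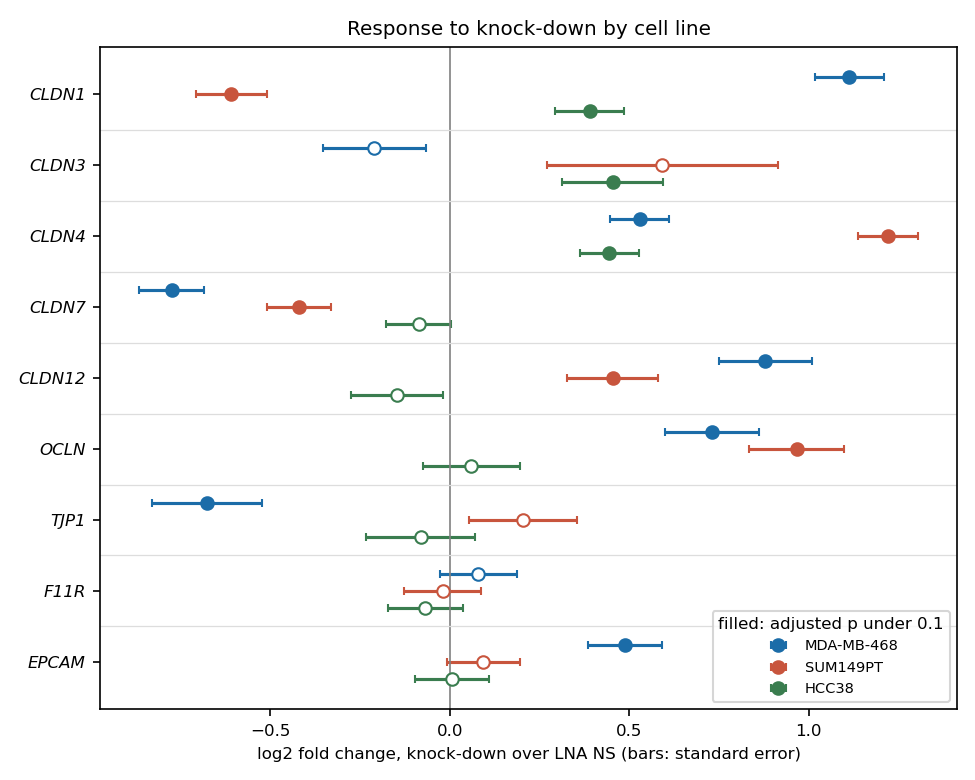
Log2 fold change of each gene, knock-down over LNA NS, in the 3 lines; bars are standard errors and filled points have an edgeR adjusted p under 0.1. CLDN4 lies right of 0 in all lines, CLDN1 on both sides, and F11R at 0, while CLDN7 lies left of 0 in MDA-MB-468 and SUM149PT.

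The response differed between the lines for 8 of the 9 genes in the test of the difference itself, where 32.4% of all genes were called. The adjusted p of that test was 7.2e-06 for CLDN1, 0.00054 for CLDN4, 0.0029 for CLDN12, 0.0039 for CLDN7, 0.0068 for OCLN, 0.019 for TJP1, 0.042 for CLDN3, 0.045 for EPCAM and 0.73 for F11R. Without MDA-MB-468 control replicate 2 or knock-down replicate 2 only 5 of the 9 were called, since CLDN3 (0.14 and 0.11), TJP1 (0.10 and 0.10) and EPCAM (0.11 and 0.23) were lost. CLDN3 was also lost without MDA-MB-468 knock-down replicate 1 (0.11) and EPCAM without control replicate 1 (0.15).

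Of 18 other claudins 13 were tested, and for the mean of the 3 lines 5 were called higher and 2 lower, with a median of 0.13, beside 28.4% and 26.5% of all genes. The 2 that fell, CLDN18 and CLDN20, were under 1 CPM in every library. Of those called higher, only CLDN15 and CLDN23 had a mean of at least 1 CPM over the groups, so the other rises rest on low levels too. CLDN15, a claudin that forms paracellular pores for cations, had the smallest adjusted p. It was at 27.6 ± 1.20 CPM after knock-down and 9.59 ± 0.101 CPM in control MDA-MB-468 cells, 30.2 ± 3.82 and 14.0 ± 0.493 CPM in SUM149PT, and 19.3 ± 1.24 and 9.33 ± 0.303 CPM in HCC38 (SD, n = 2 each), a rise of 2.88-fold, 2.16-fold and 2.07-fold. CLDN15 thus rose by over 2-fold in every line, which none of the 9 genes did. CLDN23 rose in MDA-MB-468 (2.13-fold) and HCC38 (1.47-fold), and had a log2 fold change of 0.35 ± 0.20 in SUM149PT (adjusted p = 0.22). CLDN10 fell in MDA-MB-468, with 25.5 ± 0.562 CPM after knock-down against 51.3 ± 3.00 CPM in controls, and was under 2 CPM in the other lines. CLDN10, CLDN18 and CLDN20 were chosen after their values were seen.

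Among 30 other tight junction and polarity genes, 13 rose and 10 fell for the mean of the lines, beside 28.4% and 26.5% of all genes, with a median of 0.13 on the log2 scale. MARVELD2, which encodes the occludin relative tricellulin of 3-cell contacts and is the next protein-coding gene upstream of OCLN on the same strand, 47961 bp away, rose in each line. It had 37.7 ± 4.80 CPM after knock-down against 17.8 ± 1.03 CPM in control MDA-MB-468 cells, 34.6 ± 0.0820 against 20.3 ± 0.0963 CPM in SUM149PT and 19.9 ± 0.569 against 15.2 ± 0.0424 CPM in HCC38. MARVELD3, also of the MARVEL family, rose for the mean of the lines (0.34 ± 0.05, adjusted p = 5e-05), and MARVELD1 did not pass (0.08 ± 0.05, adjusted p = 0.24). MARVELD1, MARVELD2 and MARVELD3 were chosen after their values were seen.

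Genes of the PAR complex, whose proteins place the junction at the apical side, went in both directions. PARD3, the PAR3 scaffold that binds JAM-A, fell to 13.4 ± 2.65 CPM after knock-down against 76.3 ± 1.13 CPM in control MDA-MB-468 cells, 22.9 ± 3.44 against 89.9 ± 3.40 CPM in SUM149PT and 24.2 ± 3.71 against 114.5 ± 1.67 CPM in HCC38. PRKCZ, an atypical protein kinase C of the same complex, fell 4.33-fold in MDA-MB-468, 2.36-fold in SUM149PT and 2.50-fold in HCC38, and PATJ, a scaffold of the Crumbs complex, fell 4.11-fold, 1.84-fold and 1.71-fold. PARD6B, the PAR6 adaptor between them, rose 3.39-fold, 5.02-fold and 2.25-fold. The other atypical kinase, PRKCI, was at 94.8 ± 8.25 CPM after knock-down against 65.2 ± 1.04 CPM in control MDA-MB-468 cells, 61.5 ± 2.68 against 43.1 ± 4.00 CPM in SUM149PT and 85.0 ± 8.62 against 78.5 ± 1.01 CPM in HCC38, and rose in the first 2 of these lines (adjusted p = 0.00044 and 0.0015) but did not pass in HCC38 (0.45). PARD6A, a paralog of PARD6B, fell 1.44-fold in MDA-MB-468 and 1.33-fold in SUM149PT and rose 1.33-fold in HCC38. PRKCI and PARD6A were chosen after their values were seen. PARD3 spans 705766 bp, PATJ 436199 bp and PRKCZ 134985 bp, whereas PARD6B spans 25216 bp and CLDN15 6729 bp. Genes over 200 kb had a mean-response median of -0.56 and those under 20 kb of 0.14, and the part of span in these changes was not tested.

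**Figure D4:**
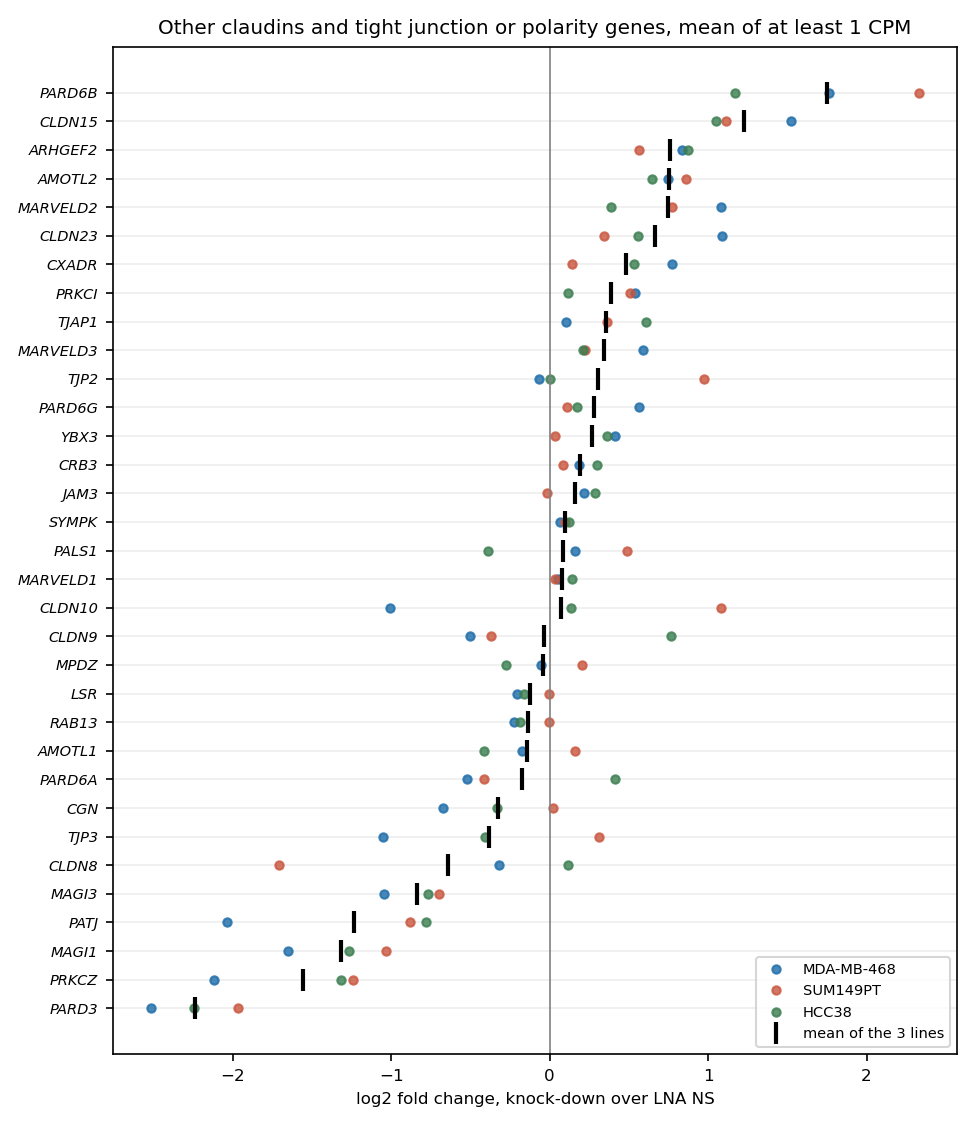
Log2 fold change, knock-down over LNA NS, of the 33 other claudin, tight junction and polarity genes with a mean of at least 1 CPM; points are lines and black marks the mean of the 3 lines. PARD6B, CLDN15 and MARVELD2 lie right of 0 in every line, and PARD3, PRKCZ, MAGI1, PATJ and MAGI3 left of it.

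Adherens junction genes, which encode the cadherin belt under the tight junction, had none higher (also none at an unadjusted p under 0.05 by edgeR) and 4 lower of 11 for the mean of the lines, beside 28.4% and 26.5% of all genes. MDA-MB-468 alone had 0 higher and 7 lower, beside 24.9% and 25.7% of all genes. SUM149PT had 1 higher and 2 lower, beside 20.0% and 18.0%, and HCC38 1 and 3, beside 15.5% and 18.4%. The single rises were CTNNB1 (β-catenin) in SUM149PT (0.29 ± 0.10, adjusted p = 0.04) and NECTIN4 in HCC38 (0.37 ± 0.11, adjusted p = 0.025), and both were chosen after their values were seen. CTNNA1 (α-catenin) fell in each line, with a log2 fold change of -0.39 ± 0.09 for MDA-MB-468, -0.92 ± 0.09 for SUM149PT and -0.94 ± 0.09 for HCC38, and spans 324068 bp. The other 3 called lower for the mean of the lines were AFDN (-0.37 ± 0.08), VCL (-0.34 ± 0.08) and NECTIN2 (-0.26 ± 0.05). CDH1 had -0.00 ± 0.07 (adjusted p = 1). There were 5 genes for membrane proteases and inhibitors that act on EPCAM and claudin 7. None rose for the mean of the lines, also at an unadjusted p under 0.05 by edgeR, beside 28.4% of all genes. For that mean 3 fell, beside 26.5% of all genes, namely SPINT2 (-0.41 ± 0.05), ST14 (-0.14 ± 0.05) and ADAM10 (-0.16 ± 0.07). HCC38 and SUM149PT each had 1 of the 5 called lower, and MDA-MB-468 had 2, beside 18.4%, 18.0% and 25.7% of all genes. ST14 was at 347 CPM after knock-down against 453 CPM in control MDA-MB-468 cells, 209 against 223 CPM in HCC38 and 284 against 271 CPM in SUM149PT. ADAM10 was at 89.2 against 112 CPM in HCC38, 102 against 106 CPM in MDA-MB-468 and 30.4 against 32.7 CPM in SUM149PT. SPINT1 rose in HCC38 (0.23 ± 0.08, adjusted p = 0.033), and was chosen after its values were seen.

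Of 11 transcription and splicing regulators of epithelial genes, 6 rose and 3 fell for the mean of the lines, beside 28.4% and 26.5% of all genes. OVOL1 rose 4.39-fold in MDA-MB-468, 2.30-fold in SUM149PT and 1.92-fold in HCC38, while its paralog OVOL2 fell 2.98-fold, 1.95-fold and 1.54-fold. GRHL3 rose 5.50-fold in SUM149PT and 1.39-fold in MDA-MB-468, and ELF3, an epithelial ETS factor, rose 2.45-fold in SUM149PT and 1.29-fold in HCC38. GRHL2, a direct activator of claudin genes including CLDN4 in mouse epithelia, fell for the mean of the lines (-0.37 ± 0.07, adjusted p = 4e-04), as did ESRP2 (-0.26 ± 0.06), and ESRP1 had 0.10 ± 0.06 (adjusted p = 0.16). Of 6 repressors of junction genes 3 were called higher and 1 lower for the mean of the lines, beside the same shares. In SUM149PT alone 1 was higher and 3 lower, beside 20.0% and 18.0% of all genes. MDA-MB-468 had 3 and 1, beside 24.9% and 25.7%, and HCC38 2 and 1, beside 15.5% and 18.4%. SNAI1 rose for the mean of the lines (0.78 ± 0.08), as did ZEB1 (0.83 ± 0.19) and TWIST1 (1.13 ± 0.25), which are near 0 in MDA-MB-468, and TWIST2 fell (-1.30 ± 0.11). In SUM149PT, the line with the most TWIST1, it fell to 15.7 ± 1.18 CPM after knock-down, against 23.0 ± 1.27 CPM in controls (adjusted p = 0.013), while its counts after knock-down and in controls were 18 and 2 in MDA-MB-468 and 110 and 53 in HCC38. SNAI2 had 29.4 ± 3.58 CPM after knock-down against 51.8 ± 1.27 CPM in control SUM149PT cells. Vimentin rose 2.12-fold in MDA-MB-468 and 1.71-fold in SUM149PT, and had 0.08 ± 0.11 in HCC38 (adjusted p = 0.65).

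Over the 12 libraries, which share line and treatment, the genes whose log2 CPM was most like that of each member among 14505 genes with a mean of at least 1 CPM were found by Pearson's r, given as a description. CLDN1 was most like SPRY2 (r = 0.979), HDGF and JMJD6. CLDN3 was most like LRP3 (r = 0.997), MACROH2A2 and SELENBP1. For CLDN4 these were SAMD9 (r = 0.967), RASD1 and SNHG5, and for CLDN7 RRM2 (r = 0.992), MAPK11 and ZCCHC17. CLDN12 was closest to ZNF557 (r = 0.966), RCHY1 and MIS12, and OCLN to ZNF287 (r = 0.979), GLE1 and CSNK2A2. TJP1 was closest to HIF1A (r = 0.992), LAMB1 and KCTD3, F11R to PSMD4 (r = 0.993), CSNK2A1 and RAP1A, and EPCAM to ILF2 (r = 0.972), PRPSAP2 and SIKE1. No gene of the 9 was among the closest of another. Within the 9, CLDN3 and F11R had the highest r (0.922) and TJP1 and EPCAM the lowest (-0.928).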

How the data were processed

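Poly-A RNA of 12 libraries (3 lines, 2 treatments, 2 libraries a group) was sequenced with a strand-specific protocol. The authors aligned reads to GRCh37 and deposited counts per Ensembl gene from HTSeq (version 0.6.0). The methods name STAR and the submitters' processing notes name TopHat2 (2.0.13) as aligner. Left out were 5 summary lines per file (40.8 to 53.7% of its total). The annotation release and the strand setting are not given in the sources used here. Symbols came from GENCODE lifted to GRCh37, which matched 55665 of 63677 genes. The rest held 0.636% of counts.

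Counts were fitted with edgeR 4.0.16 (R 4.3.3) over all 12 libraries and 6 group means, after filterByExpr (minimum count 10) and TMM scaling, with the quasi-likelihood test. Adjusted p-values are Benjamini-Hochberg over 21325 genes, and a call is an adjusted p under 0.1. Standard errors are the log2 fold change divided by the root of F. The mean of the 3 responses and the F test of their difference came from the same fit. No label says that replicates come from separate cultures. The p-values therefore reflect just the variation among these libraries, possibly technical. On simulated counts of 20393 genes, the share of 2-fold changes recovered was 98.5% for MDA-MB-468, 95.5% for SUM149PT and 98.5% for HCC38. Of 1.5-fold changes it was 53.0%, 54.5% and 54.5%, and the false share was 8.7%, 4.57% and 6.11%. Only 67 genes had a 2-fold and 66 a 1.5-fold change, all at 1 CPM or more. Every gene was simulated with the same dispersion (spread beyond counting noise) of 0.011, the rounded common value of these data. Recovery was not tested at lower levels, such as CLDN3 in SUM149PT, or for genes that vary more between libraries. It was also not tested with as many changed genes as in these data.

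The members and the gene lists were chosen with earlier results of these data known. All 9 members are named. Of each other list up to 4 genes with a mean of at least 1 CPM are named by smallest adjusted p for the mean of the lines or between lines, with further genes for their level and those said to be chosen later. Alternatives were DESeq2 (1.42.0), other scalings and filters, a replicate block, a fit per line, and each library left out. The LNA sequences are not shown, and 2 genes of the lists are not reported here.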

Additional observations from a re-analysis of the deposited data

Results flagged for a closer look

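The knock-down response differed between the 3 lines by the edgeR test of that difference for 8 of the 9 genes, beside 32.4% of all genes tested. These 8 results were flagged, in genes chosen with earlier results of these data known. CLDN1, which rose in MDA-MB-468 and HCC38 and fell in SUM149PT, had an adjusted p of 7.2e-06. CLDN4 had 0.00054, with the rise greatest in SUM149PT. CLDN12 had 0.0029, CLDN7 0.0039 and OCLN 0.0068, each of which changed in MDA-MB-468 and SUM149PT and did not pass in HCC38. TJP1 had 0.019, CLDN3 0.042 and EPCAM 0.045, and these 3 rest on single MDA-MB-468 libraries. The cause of the differences was not tested.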

How the results depend on the processing

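The number of the 9 genes called was 7 for MDA-MB-468, 5 for SUM149PT, 3 for HCC38 and 8 for the mean of the lines. With 1 library left out in turn it ran from 7 to 7, 4 to 6, 2 to 3 and 6 to 8. The difference between lines was called for 8 genes, and for 5 to 8 when 1 library was left out. Between control lines the range was 6 to 8 for HCC38 against MDA-MB-468, 7 to 8 for HCC38 against SUM149PT and 8 to 8 for SUM149PT against MDA-MB-468. No value with a call in the main fit or the alternative reversed in any setting run. Some values without a call changed sign when 1 library was left out. In HCC38 the response ran from -0.15 to 0.22 for OCLN and from -0.33 to 0.11 for TJP1. Of 864 values with 1 library left out, 826 stayed on their side of the threshold, 36 lost the call and 2 gained it. With DESeq2 all 72 values stayed on their side, and with a fit on each line alone all 27. TJP1 lost its call for the mean of the lines with DESeq2 size factors (-0.18), upper quartile scaling (-0.08) and a minimum of 10 counts in every library (-0.15), and CLDN1 between HCC38 and SUM149PT without a filter (-0.23). Upper quartile scaling moved the all-gene median log2 fold change to 0.14 for MDA-MB-468, 0.09 for SUM149PT, 0.13 for HCC38 and 0.15 for the mean, and the share of calls that were higher to 59.5, 59.6, 63.4 and 62.9%, beside 49.2, 52.6, 45.8 and 51.8% with TMM. The cause was not tested.

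Over all genes tested, deviations of same-numbered libraries correlated at -0.00520 (MDA-MB-468), 0.0971 (SUM149PT) and -0.118 (HCC38). These values cannot decide whether replicate numbers pair the libraries, as they include many genes of low count, where counting noise is large. With a replicate block the counts called were 7, 5 and 3 in the lines, 6 for the mean (CLDN3 and TJP1 lost) and 7 for the difference (CLDN3 lost). A block with crossed numbers in HCC38, chosen after seeing the data, gave 7, 6, 3, 8 and 8. Depth limits CLDN3 in SUM149PT, with 40 control counts.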
